A study of Mus musculus with 19 samples.

Results

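The enzymes of mitochondrial fatty acid oxidation and of the tricarboxylic acid (TCA) cycle were compared between mouse angiosarcomas and normal tissues. They were given as 35 genes, chosen by name with earlier results of these data known. A gene was read from the array probe set that carries its symbol alone. Where there were several such probe sets, the brightest over the 19 arrays was taken. Of the 35 genes, 33 were measured, among 22180 genes in all. Acsl1, which activates long-chain fatty acids, had no probe set of its own, and Cpt1b, the carnitine palmitoyltransferase of muscle, shared its probe set with another symbol, so neither was read.

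RNA had been hybridised to Affymetrix arrays from 7 tumors, 4 aortas, 4 sternocleidomastoid muscles (a neck muscle) and 4 quadriceps femoris muscles (a thigh muscle). The tumors arose in aP2-Cre/+;DicerFlox/- animals, in which the promoter of aP2 (Fabp4), a fatty acid binding protein gene best known from adipocytes, drives Cre recombinase and the remaining Dicer allele is floxed. Wild type animals gave the normal tissues, and the animals behind all 4 groups were on a mixed C57Bl/6 and 129X1/SvJ background. None of the normal tissues was from a Cre or floxed Dicer animal, so tissue and genotype cannot be told apart in any tumor comparison. The labels give neither age nor which samples came from separate animals, and p-values therefore measure only the spread between these samples. Values were read as log2 intensities from their range, and array medians lay between 5.35 and 5.48.

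Fatty acids enter the mitochondrial matrix through the carnitine shuttle and are shortened there by the repeated steps of beta-oxidation, whose electrons pass through the electron transfer flavoprotein to the respiratory chain. The acetyl-CoA that results, like that made from pyruvate by the pyruvate dehydrogenase complex, is oxidised in the TCA cycle. Brown fat, heart and slow skeletal muscle are known for high levels of these enzymes, and Ucp1, which uncouples respiration, is the defining gene of brown adipocytes.

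The labelled tissues were set against marker lists, and some normal samples carried markers of other cell types. Over 8 endothelial genes the array means were 10.18 to 11.14 in tumors, 8.60 to 8.80 in aortas and 7.86 to 8.36 in the muscles. Ucp1 stood at 12.67 to 12.86 in the 4 aortas, and Myl7, an atrial myosin light chain, at 10.94 to 11.78 in the aortas, against 4.17 to 5.10 in all other arrays. In sternocleidomastoid samples Ucp1 was 11.54, 11.64, 9.99 and 11.73, against 4.68, 4.89, 4.89 and 9.07 in quadriceps femoris samples. Among the tumors, Ucp1 was 11.08 in tumor 4 and 10.47 in tumor 5 and lay between 4.39 and 4.81, below the array medians, in the others. These arrays are bulk samples, in which fewer cells of a type and less RNA per cell cannot be told apart.

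Promoters are shown here for 4 members whose start regions held a searched motif: Cpt1a, which alone among the members was higher in tumors, and Acadm, Etfdh and Sucla2, which were lower. Each run is the 250 bases before the RefSeq start, read 5' to 3' in the direction of the gene on GRCm38.p6. Capitals mark matches on either strand to AGGTCA, the core element bound by nuclear receptors, or to a palindrome bound by the transcription factor NRF1, in which GCGC flanks A and any base. The Cpt1a run is chr19:3323051-3323300 (plus strand) and the Acadm run chr3:153944644-153944893 (minus strand). The Etfdh run is chr3:79628768-79629017 (minus strand) and the Sucla2 run chr14:73552536-73552785 (plus strand).
Cpt1a: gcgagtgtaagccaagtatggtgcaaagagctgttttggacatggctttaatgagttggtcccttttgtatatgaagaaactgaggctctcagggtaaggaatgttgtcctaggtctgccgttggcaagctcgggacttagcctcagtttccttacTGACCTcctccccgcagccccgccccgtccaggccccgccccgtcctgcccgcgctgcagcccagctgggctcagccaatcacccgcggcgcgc
Acadm: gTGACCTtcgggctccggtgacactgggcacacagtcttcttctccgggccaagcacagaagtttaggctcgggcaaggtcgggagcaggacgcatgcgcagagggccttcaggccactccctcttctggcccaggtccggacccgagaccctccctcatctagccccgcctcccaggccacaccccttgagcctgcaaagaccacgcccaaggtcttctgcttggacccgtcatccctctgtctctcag
Etfdh: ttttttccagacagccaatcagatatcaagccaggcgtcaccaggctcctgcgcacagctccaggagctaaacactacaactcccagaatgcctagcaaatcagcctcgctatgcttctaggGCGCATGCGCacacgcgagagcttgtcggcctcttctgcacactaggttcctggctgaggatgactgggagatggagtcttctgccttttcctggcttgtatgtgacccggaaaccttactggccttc
Sucla2: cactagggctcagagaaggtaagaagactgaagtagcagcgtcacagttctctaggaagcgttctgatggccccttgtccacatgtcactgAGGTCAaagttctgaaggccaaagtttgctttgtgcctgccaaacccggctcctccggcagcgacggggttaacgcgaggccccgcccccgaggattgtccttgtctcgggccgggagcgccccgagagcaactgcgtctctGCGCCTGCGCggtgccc
In Cpt1a the core element lay 94 to 89 bases before the start and in Acadm 249 to 244, both read on the opposite strand. In Etfdh the palindrome lay 128 to 119 bases before the start. Sucla2 held the core element 159 to 154 bases before the start. Its match to the letters of the palindrome, 17 to 8 bases before the start, was read on the opposite strand only.

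The motif shares among members were close to, or rested on few windows beside, those of all promoters. RefSeq windows existed for 30 of the 33 measured members, which had 35 windows between them, out of 32851 windows in the table. AGGTCA was found in 5 of the 35 windows (14.3%), those of Acadm, Acadvl, Cpt1a, Fh1 and Sucla2, against 14% of all windows. The palindrome was found in 3 of 35 (8.57%), those of Etfb, Etfdh and Sucla2, against 3.74% of all windows. The extended element of estrogen-related receptors, TNA placed before AGGTCA, matched in 0 of 35 windows and 1.14% of all, and the direct repeat bound by PPAR and RXR, AGGTCA repeated after any 1 base, in 0 of 35 and 0.0335% of all. Both of these longer motifs contain AGGTCA. A match of letters is a description of the sequence and was not tested against the expression values.

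**Figure D1:**
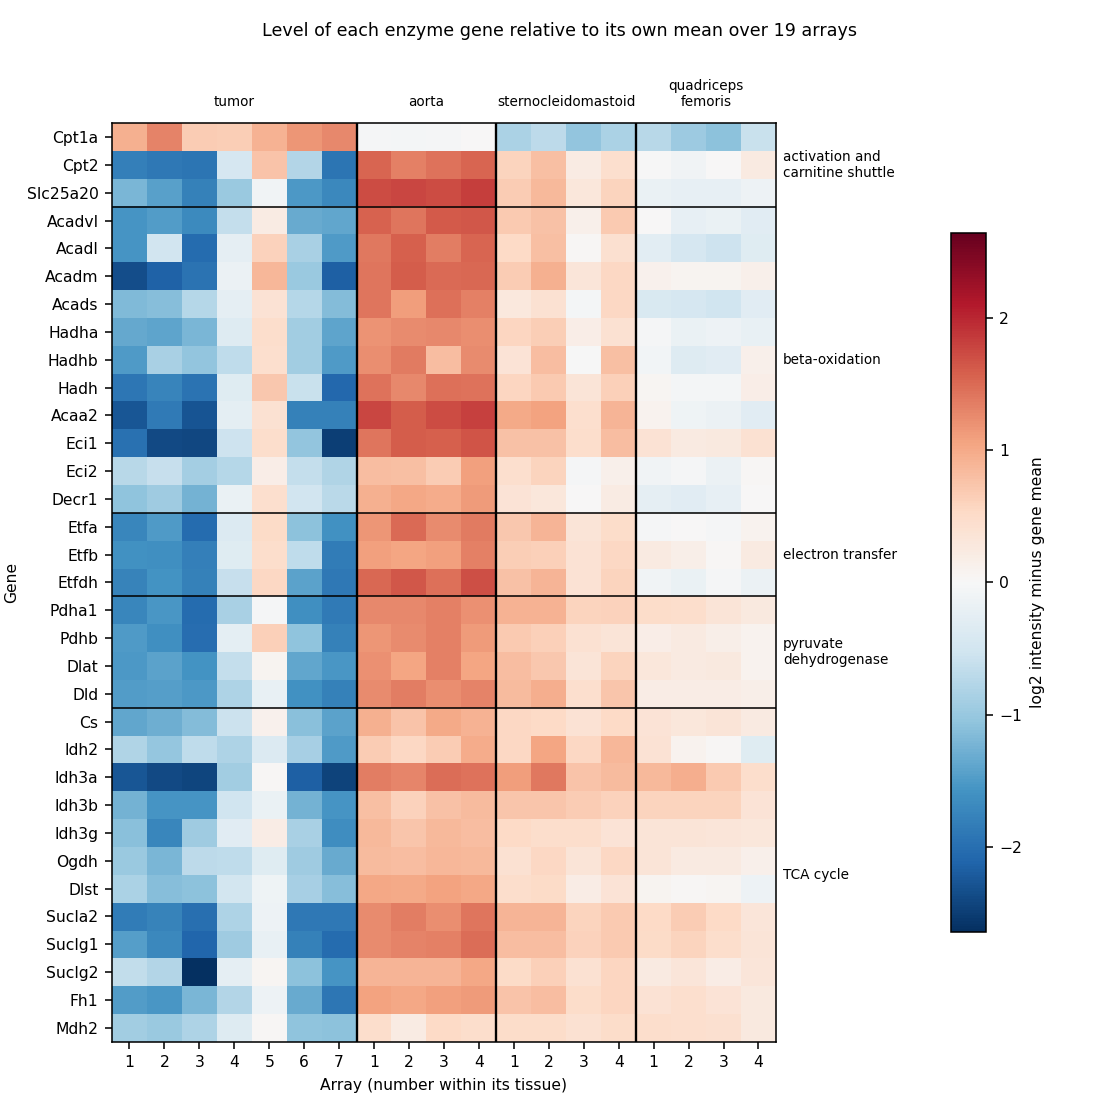
Level of each of the 33 measured genes on each of the 19 arrays, as its log2 intensity minus the mean of that gene over all arrays (colour scale), with genes grouped by role in rows and tumors, aortas, sternocleidomastoid and quadriceps femoris samples in columns from left to right. Tumor 5 has the highest tumor value of 32 genes and tumor 4 the next for 30, and Cpt1a is the gene with all tumors above the other samples.

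In tumors, 32 of the 33 enzymes were lower than in aorta and 1, Cpt1a, was higher, each past the threshold of limma's moderated test (Benjamini-Hochberg adjusted p under 0.05 over all 22180 genes). Over all genes 17.5% fell and 18.6% rose in this comparison. The median difference of the members was -2.29 log2 units, a 4.91-fold lower signal at the median gene, and the differences ran from -3.18 to 1.01. No tumor reached the lowest aorta for any of the 32 genes that fell, whereas 11.5% of all genes lay wholly below, and Cpt1a lay wholly above, as did 12.2%. The median difference over all genes was -0.022.

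In the carnitine shuttle, Slc25a20, the carnitine-acylcarnitine translocase of the inner membrane, ranged from 7.55 through a median of 7.91 to 9.24 in tumors, against 11.06, 11.10, 11.06 and 11.17 in aortas. The aortas lay within a narrow band, and the highest tumor, tumor 5, stayed well below it. Slc25a20 fell by 3.01 ± 0.22 log2 units (SE, limma adjusted p = 6.85e-09). Cpt2, which turns acylcarnitine back into acyl-CoA in the matrix, fell by 2.60 ± 0.38 (limma adjusted p = 2.19e-05).

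All 11 beta-oxidation genes fell against aorta, with a median difference of -2.33. Acaa2, a thiolase that splits off acetyl-CoA, ranged from 8.58 through a median of 9.06 to 11.26 in tumors, against 12.61, 12.45, 12.58 and 12.65 in aortas. Tumors 4 and 5, at 10.59 and 11.26, stood apart from the other 5, which did not exceed 9.07. Acaa2 fell by 3.13 ± 0.39, or 8.74-fold (SE, limma adjusted p = 3.03e-06). Eci1, an isomerase needed for unsaturated fatty acids, fell by 3.05 ± 0.41, and Eci2, an isomerase with a partly peroxisomal location, fell by 1.45 ± 0.16, the smallest change of the group. The acyl-CoA dehydrogenases, which start each round on chains of different length, fell by 2.68 ± 0.26 (Acadvl, very long), 2.33 ± 0.34 (Acadl, long), 2.76 ± 0.45 (Acadm, medium) and 2.02 ± 0.23 (Acads, short). The subunits of the trifunctional protein fell by 2.11 ± 0.26 (Hadha) and 2.03 ± 0.27 (Hadhb). Hadhb was dim in tumors, with a mean of 5.48 ± 0.66 (SD, n = 7), which is at the array medians. Hadh, the dehydrogenase for shorter chains, fell by 2.52 ± 0.39, and Decr1, a reductase for unsaturated chains, fell by 1.62 ± 0.22.

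The 3 electron transfer genes fell too. Etfdh, the oxidoreductase that hands the electrons to ubiquinone, ranged from 7.96 through a median of 8.26 to 10.38 in tumors, against 11.35, 11.48, 11.30 and 11.54 in aortas. The groups did not overlap, and tumor 5 was again the highest tumor. Etfdh fell by 2.79 ± 0.33 (limma adjusted p = 1.63e-06), and the flavoprotein subunits also fell, with differences of -2.43 ± 0.33 (Etfa) and -2.19 ± 0.33 (Etfb).

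The 4 genes of the pyruvate dehydrogenase complex fell within a narrow range, from -2.65 to -2.29 log2 units. Pdha1, the catalytic alpha subunit, ranged from 7.78 through a median of 8.21 to 9.80 in tumors, against 11.10, 11.10, 11.15 and 11.03 in aortas. All 7 tumors lay more than a log2 unit below the lowest aorta. Pdha1 fell by 2.65 ± 0.26 (limma adjusted p = 2.35e-07). Pdhb, the beta subunit, fell by 2.30 ± 0.35, Dlat, the acetyl-transferring core, showed -2.29 ± 0.24, and Dld, the lipoamide dehydrogenase that other complexes also use, -2.54 ± 0.21.

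The 12 TCA cycle genes fell unequally, with a median difference of -1.87. Idh3a, the catalytic subunit of the NAD-dependent isocitrate dehydrogenase, ranged from 8.06 through a median of 8.25 to 10.54 in tumors, against 11.86, 11.79, 11.97 and 11.93 in aortas. Only tumors 4 and 5, at 9.58 and 10.54, exceeded 8.35. Idh3a fell by 3.18 ± 0.36, or 9.05-fold (SE, limma adjusted p = 1.23e-06), and its partner subunits fell by 1.87 ± 0.21 (Idh3b) and 1.73 ± 0.25 (Idh3g). Suclg1 and Sucla2, subunits of succinyl-CoA ligase, fell too, with differences of -2.81 ± 0.25 and -2.79 ± 0.27. Fumarase (Fh1) fell by 2.27 ± 0.22, citrate synthase (Cs) by 1.86 ± 0.21, and the oxoglutarate dehydrogenase subunits by 1.72 ± 0.14 (Ogdh) and 1.84 ± 0.15 (Dlst). The smallest decline was that of Mdh2, mitochondrial malate dehydrogenase, by 1.16 ± 0.16 (limma adjusted p = 1.52e-05).

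Markers of other cell types differed with this comparison. Over 10 brown adipocyte genes, of which Cox8b, Cox7a1, Ppargc1a and Fabp3 are also expressed by muscle, array means were 5.43 to 8.11 in tumors and 10.19 to 10.68 in aortas. Over 10 heart muscle genes they were 5.49 to 5.94 in tumors and 9.01 to 9.33 in aortas, and over 9 general adipocyte genes 5.80 to 10.69 in tumors and 10.43 to 10.64 in aortas. Of the brown adipocyte genes, Fabp3 (0.03 ± 0.10) did not pass, and the others fell. Of the heart muscle genes, Myl2 (0.43 ± 0.20) and Myl3 (-0.79 ± 0.37) did not pass, and the others fell. Among those, Actc1 averaged 11.97 in aortas but also 11.76 in sternocleidomastoid and 12.05 in quadriceps femoris. Over 6 smooth muscle genes the array means were 8.52 to 10.03 in tumors and 10.29 to 10.80 in aortas, and over 7 macrophage genes 8.36 to 9.37 in tumors and 6.93 to 7.22 in aortas. The part of the smooth muscle, adipocyte, macrophage and endothelial lists was not tested. Every aorta carried the brown adipocyte and heart muscle signal, so it cannot be told apart from the tissue, and its part in the result was not tested. Centring the arrays on 8 housekeeping genes put the median of all genes at -0.68, against -0.022 without it, with 1099 genes higher and 17661 lower where 4131 and 3892 were before. The members kept 32 falls and 1 rise, with a median of -2.27 relative to that median.

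**Figure D2:**
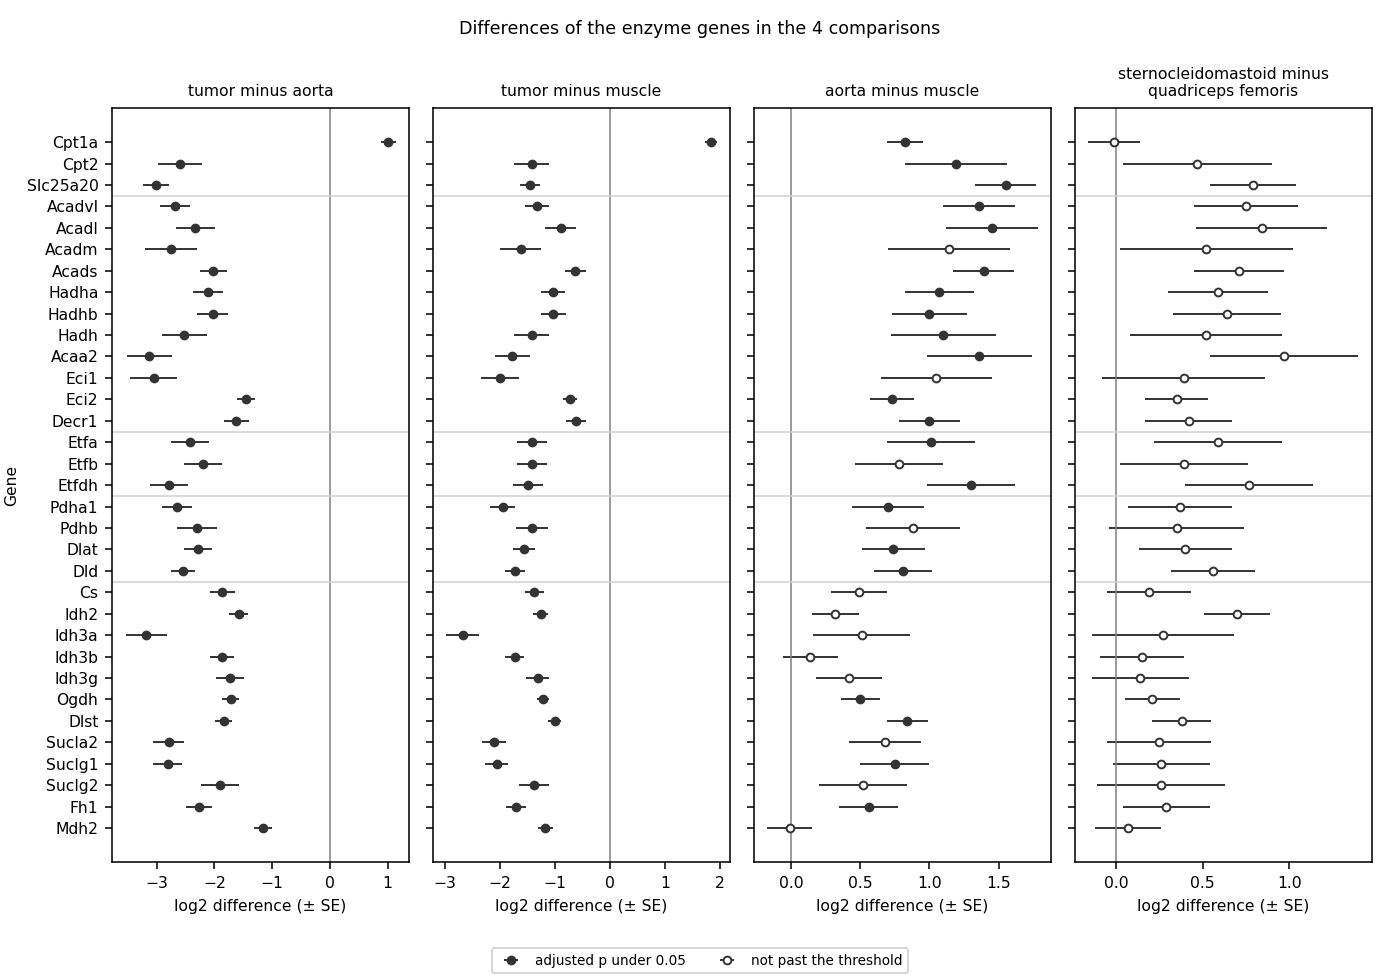
Log2 difference with its standard error for each measured gene, grouped by role, in 4 panels: tumor minus aorta, tumor minus muscle, aorta minus muscle, and sternocleidomastoid minus quadriceps femoris. Filled points passed an adjusted p of 0.05, which 33 did in each of the tumor panels, 21 in the third panel and 0 in the last.

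Against the mean of both muscles, the same 32 genes fell and Cpt1a rose, and the median decline was smaller. The tumor arrays serve in both tumor comparisons, so the comparisons share them. Over all genes 25.7% fell and 25.3% rose. The median difference of the members was -1.42 log2 units, or 2.67-fold lower, with a range from -2.67 to 1.83, and the median over all genes was -0.038. Only 14 of the 32 genes lay below every muscle sample in every tumor, against 12.7% of all genes, and Cpt1a lay above every muscle sample, as did 14.6%.

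The roles differed in that overlap. All 7 tumors lay below all 8 muscle samples for 11 of 12 TCA cycle genes, the exception being Dlst, and for 3 of 4 pyruvate dehydrogenase genes, the exception being Pdhb. For the 11 beta-oxidation genes, the 3 electron transfer genes, and the shuttle genes Cpt2 and Slc25a20, at least 1 tumor reached the muscle range. Median differences were -1.04 in beta-oxidation, -1.38 in the TCA cycle, -1.42 in electron transfer and -1.64 in pyruvate dehydrogenase. The difference between roles was not tested.

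Slc25a20 in tumors, at 7.55 to 9.24 with a median of 7.91, compared with 10, 10.20, 9.63 and 9.92 in sternocleidomastoid and 9.17, 9.11, 9.11 and 9.21 in quadriceps femoris. Tumor 5 alone passed the quadriceps femoris samples. The difference was -1.45 ± 0.18 (SE, limma adjusted p = 1.27e-06). Eci1 ranged from 7.56 through a median of 8.07 to 10.51 in tumors, against 10.83, 10.82, 10.51 and 10.86 in sternocleidomastoid and 10.43, 10.29, 10.31 and 10.45 in quadriceps femoris. Its difference, -2.0 ± 0.34 (limma adjusted p = 5.22e-05), was the largest in beta-oxidation even though tumor 5 lay among the muscle samples. Etfdh had 10.62, 10.73, 10.22 and 10.43 in sternocleidomastoid and 9.75, 9.66, 9.82 and 9.68 in quadriceps femoris, and its difference was -1.49 ± 0.27 (limma adjusted p = 1.03e-04).

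Pdha1 and Idh3a showed no overlap. Pdha1 was 10.73, 10.73, 10.40 and 10.44 in sternocleidomastoid and 10.30, 10.29, 10.17 and 10.07 in quadriceps femoris, all above the highest tumor at 9.80, and fell by 1.95 ± 0.22 (limma adjusted p = 2.67e-07). Idh3a was 11.60, 11.89, 11.25 and 11.33 in sternocleidomastoid and 11.35, 11.46, 11.20 and 10.96 in quadriceps femoris, above the highest tumor at 10.54. It fell by 2.67 ± 0.30, or 6.37-fold (limma adjusted p = 2.80e-07). Sucla2 and Suclg1 fell by 2.11 ± 0.22 and 2.06 ± 0.21. The smallest declines were those of Decr1, by 0.62 ± 0.18 (limma adjusted p = 0.00794), Acads, by 0.63 ± 0.19 (limma adjusted p = 0.00821), Eci2, by 0.72 ± 0.13, and Acadl, by 0.89 ± 0.28 (limma adjusted p = 0.0120). With quadriceps femoris as the only muscle, the declines of Decr1, Acads and Acadl no longer passed (-0.41, -0.28 and -0.47, limma adjusted p = 0.147, 0.354 and 0.293), nor did they with tumors 5 to 7 alone (-0.28, -0.45 and -0.60, limma adjusted p = 0.231, 0.128 and 0.115).

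Skeletal muscle markers and part of the brown adipocyte list differed with this comparison. Of the brown adipocyte genes, Ucp1 (-2.13 ± 1.0), Cidea (-1.79 ± 0.84), Dio2 (-0.21 ± 0.28), Prdm16 (-0.19 ± 0.14) and Fabp3 (0.02 ± 0.08) did not pass. The others fell, most of all Cox7a1 (-4.5), Ppargc1a (-3.69) and Cox8b (-3.52), which muscle also expresses. Over the brown adipocyte genes the array means were 5.43 to 8.11 in tumors, 8.52 to 9.49 in sternocleidomastoid and 7.27 to 8.29 in quadriceps femoris, and over 10 skeletal muscle genes 5.13 to 10.32 in tumors and 11.97 to 12.40 in the muscles. Over the general adipocyte genes they were 5.80 to 10.69 in tumors, 8.09 to 8.99 in sternocleidomastoid and 7.71 to 10.05 in quadriceps femoris. Over the smooth muscle genes the means were 8.52 to 10.03 in tumors, 7.71 to 7.87 in sternocleidomastoid and 7.33 to 7.63 in quadriceps femoris, and over the macrophage genes 8.36 to 9.37 in tumors, 6.67 to 6.85 in sternocleidomastoid and 6.39 to 7.32 in quadriceps femoris. The part of these lists in the result was not tested. Ucp1 lay below 5 in tumors 1, 2, 3, 6 and 7 and in quadriceps femoris 1 to 3, and between those arrays 32 members fell and 1 rose, where 20.4% and 21.5% of all genes did. Their median difference there was -1.59, and Idh3a fell by 3.17. This selection was made after seeing the data, and it leaves out tumors 4 and 5, the highest tumors for most members, which by itself lowers the tumor means of those members. Centring on the housekeeping genes put the median of all genes at -1.03, against -0.038 without it, with 1340 genes higher and 18967 lower where 5617 and 5691 were before. The members kept the same calls, with a median of -1.38 relative to that median.

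**Figure D3:**
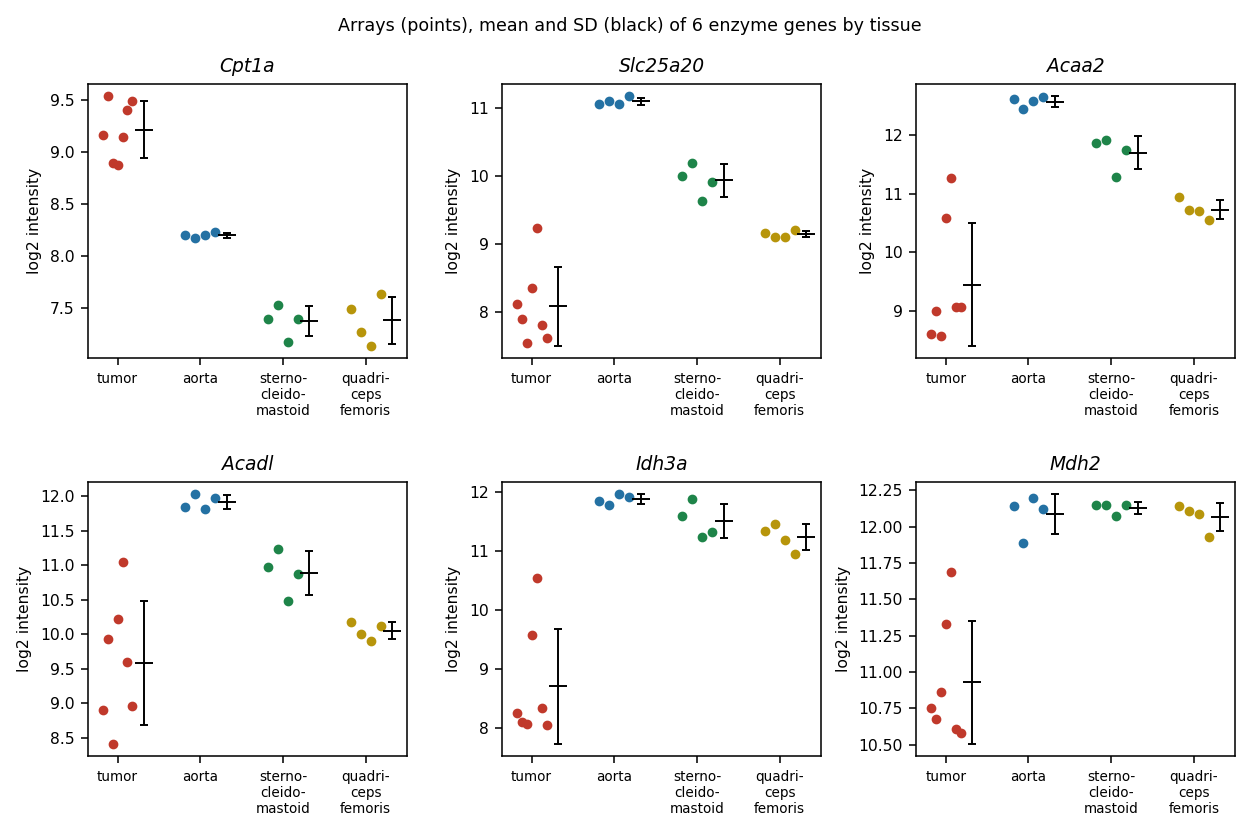
Log2 intensity of Cpt1a, Slc25a20, Acaa2, Acadl, Idh3a and Mdh2 on each array (points), with mean and SD per group, for tumors, aortas, sternocleidomastoid and quadriceps femoris from left to right. Tumors spread over 2.68 units for Acaa2 and 0.66 units for Cpt1a, the one gene with all tumors above the other samples.

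Cpt1a, the carnitine palmitoyltransferase of the outer mitochondrial membrane that is widely expressed and controls the entry of long-chain fatty acids, was higher in tumors. Its levels were 9.16, 9.53, 8.89, 8.87, 9.14, 9.40 and 9.49 in tumors 1 to 7, against 8.20, 8.17, 8.20 and 8.23 in aortas. In the muscles Cpt1a was 7.40, 7.53, 7.18 and 7.40 in sternocleidomastoid and 7.49, 7.27, 7.14 and 7.64 in quadriceps femoris. Every tumor was above every normal sample, and the highest aorta was above the highest muscle sample. Cpt1a was 1.01 ± 0.13 higher than in aorta (2.01-fold, limma adjusted p = 4.69e-06) and 1.83 ± 0.11 higher than in muscle (3.56-fold, limma adjusted p = 3.31e-11).

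The size of the Cpt1a rise depended on scaling. With the arrays centred on the housekeeping genes the differences were 0.35 against aorta (limma adjusted p = 0.0181) and 0.84 against muscle (limma adjusted p = 4.07e-07), or 1.03 and 1.87 relative to the median of all genes. Between the arrays without a Ucp1 signal Cpt1a was 2.0 higher in tumors than in quadriceps femoris (limma adjusted p = 4.91e-09). Tumors 4 and 5, which held the highest tumor values of most other members, were at 8.87 and 9.14 for Cpt1a, among the 3 lowest tumors. The spread of Cpt1a among tumors, an SD of 0.27, was the smallest of all 33 members.

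Cpt1c, a relative of Cpt1a known mainly from neurons, was also higher in tumors, at 7.71 ± 0.30 (SD, n = 7) against 7.07 ± 0.23 in aorta (n = 4), and rose by 0.64 ± 0.14 there and by 1.28 ± 0.11 against muscle (SE, limma adjusted p = 0.00108 and 1.17e-08). With housekeeping centring its differences were -0.01 and 0.29, where the median of all genes was -0.68 and -1.03. Cpt1c is not among the 35 genes and was singled out after its values were seen.

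Among the tumors, the 32 genes that fell varied more than genes in general. The median SD of the members was 0.68 among tumors, against 0.21 over all genes, while it was 0.09 among aortas, 0.18 among sternocleidomastoid and 0.10 among quadriceps femoris samples, against 0.16, 0.16 and 0.14 over all genes. Electron transfer genes had the highest median SD among tumors, 0.89, and TCA cycle genes the lowest, 0.57. Acadm, which handles medium-chain fatty acids, was the most variable, at 8.74, 8.94, 9.13, 10.92, 11.96, 10.11 and 8.92 in tumors 1 to 7. Its SD of 1.23 lay at the 98.9th percentile of all genes. No test was made of these spreads.

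Tumor 5 was the highest tumor for all 32 genes, and tumor 4 the next for 30 of them. Tumor 5 exceeded the highest quadriceps femoris sample for 17 genes and the highest of all muscle samples for 2, and tumor 4 exceeded the highest quadriceps femoris sample for 2. The lowest muscle sample was exceeded by tumor 5 for 18 genes, by tumor 4 for 4, by tumor 2 for 1 and by the other tumors for 0. The lowest tumor was tumor 7 for 14 genes and tumor 3 for 13. Averaged over the 11 beta-oxidation genes, tumors 1 to 7 were at 8.08, 8.30, 8.08, 9.28, 10.14, 8.73 and 8.13, and over the 12 TCA cycle genes at 9.13, 8.95, 8.93, 9.75, 10.29, 9.11 and 8.75.

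Tumors 4 and 5 were also the tumors with a Ucp1 signal. Adipoq, the adipocyte hormone adiponectin, was 8.45 in tumor 4, 10.01 in tumor 5 and 9.48 in tumor 6, and between 4.25 and 6.15 in the others. Skeletal muscle markers averaged 8.91, 10.32, 6.74, 8.59, 5.13, 5.42 and 9.36 in tumors 1 to 7. The part of these cell types in the spread was not tested.

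**Figure D4:**
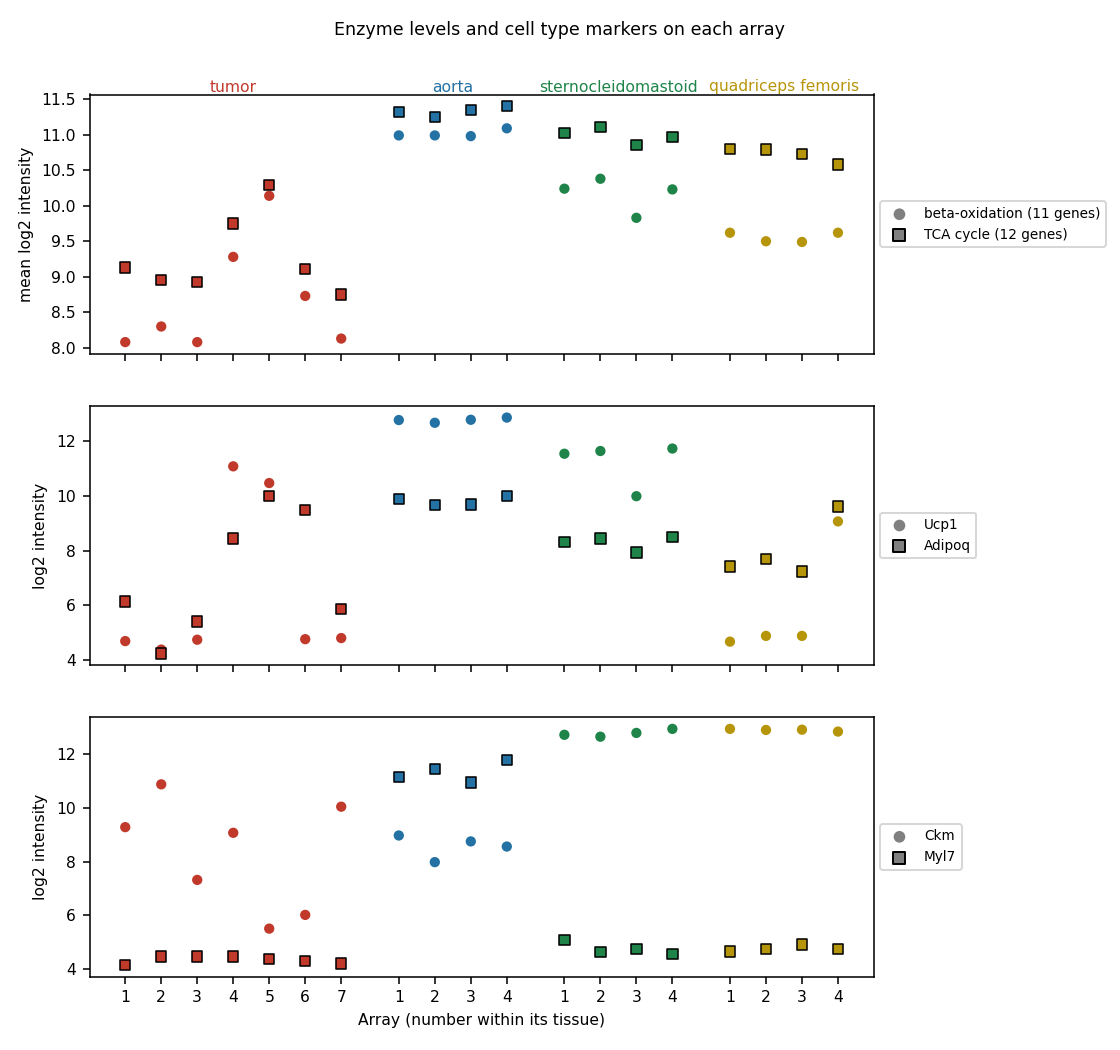
Per-array means of the 11 beta-oxidation and 12 TCA cycle genes beside the log2 intensities of Ucp1 and Adipoq (adipocyte markers) and of Ckm and Myl7 (skeletal and heart muscle markers), for tumors 1 to 7, aortas, sternocleidomastoid and quadriceps femoris from left to right. Tumors 4 and 5 have beta-oxidation means of 9.28 and 10.14 and are the tumors with Ucp1 above 10.

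Unequal changes within reactions were followed as log2 ratios of a gene pair on the same array, tested by exact two-sided permutation with adjustment over 8 tests. Mitochondrial isocitrate dehydrogenase exists as an NADP-dependent form, Idh2, and as the NAD-dependent complex that contains Idh3a. The pair takes Idh3a alone, the member with the largest fall in both tumor comparisons. The partner subunits lay closer to Idh2, with differences of -1.87 (Idh3b) and -1.73 (Idh3g) against aorta, and -1.73 and -1.31 against muscle. The ratio therefore describes this subunit and not the whole complex. A ratio to the member that fell most tends to rise in tumors, so its p-values add no independent support to the fall of Idh3a. The Idh2 to Idh3a log2 ratio was 0.92, 0.83, 1.22, -0.43, -0.93, 0.74 and 0.42 in tumors 1 to 7, against -1.21, -1.28, -1.33 and -0.99 in aortas. Muscle ratios were -1.09, -0.88, -0.74 and -0.49 in sternocleidomastoid and -0.99, -1.39, -1.21 and -1.32 in quadriceps femoris. All tumors but tumor 5 lay above all normal samples, and tumor 5 lay within the muscle range. Tumor 4, at -0.43, was only just above the highest normal sample, sternocleidomastoid 4 at -0.49.

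The ratio was 1.6 higher in tumors than in aortas (exact permutation p = 0.00909, adjusted p = 0.0242, higher in 7 of 7 tumors) and 1.41 higher than in muscle (exact permutation p = 0.000932, adjusted p = 0.00746). Idh2 itself fell, with differences of -1.58 ± 0.17 against aorta and -1.26 ± 0.14 against muscle (limma adjusted p = 7.18e-07 and 3.12e-07), with 8.48 to 9.61 in tumors, 10.65, 10.51, 10.64 and 10.95 in aortas, 10.51, 11.01, 10.51 and 10.84 in sternocleidomastoid and 10.36, 10.07, 10 and 9.64 in quadriceps femoris. Between aorta and muscle the ratio differed by -0.19 (exact permutation p = 0.279, adjusted p = 0.319). Between sternocleidomastoid and quadriceps femoris it differed by 0.43 (exact permutation p = 0.0571, adjusted p = 0.0762), where 4 against 4 samples allow no p below 0.0286.

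Succinyl-CoA ligase pairs the shared subunit Suclg1 with Sucla2 in its ADP-forming version or with Suclg2 in its GDP-forming version. The Suclg2 to Sucla2 log2 ratio was 1.03, 0.83, -0.82, 0.42, 0.02, 0.65 and 0.16 in tumors 1 to 7, against -0.51, -0.64, -0.50 and -0.56 in aortas. It was -0.55, -0.42, -0.35 and -0.27 in sternocleidomastoid and -0.46, -0.50, -0.50 and -0.17 in quadriceps femoris. Tumor 3, with a Suclg2 level of 6.61 against 7.69 or more in the other tumors, was the only tumor below the normal samples.

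This ratio was 0.73 higher in tumors than in muscle (exact permutation p = 0.0073, adjusted p = 0.0242), and the difference of 0.88 from aortas did not pass (exact permutation p = 0.0303, adjusted p = 0.0606). Aorta and muscle differed by -0.15 (exact permutation, adjusted p = 0.0762), and the muscles by 0.01 (exact permutation, adjusted p = 1). Without tumor 3, singled out after its value was seen, the ratio was 1.07 higher in tumors than in aortas (exact permutation, adjusted p = 0.0127). Every remaining tumor lay above every aorta, so the permutation p was the smallest possible and adds no support. Sucla2 was 7.43 to 9.29 in tumors, 10.67, 10.78, 10.64 and 10.83 in aortas, 10.31, 10.31, 10 and 10.11 in sternocleidomastoid and 9.95, 10.08, 9.94 and 9.74 in quadriceps femoris. Suclg2 was 6.61 to 9.31 in tumors, 10.15, 10.14, 10.14 and 10.27 in aortas, 9.75, 9.89, 9.65 and 9.83 in sternocleidomastoid and 9.49, 9.58, 9.44 and 9.58 in quadriceps femoris. A second Suclg2 probe set was dim, at a mean of 4.09 in tumors and 4.79 in aortas.

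**Figure D5:**
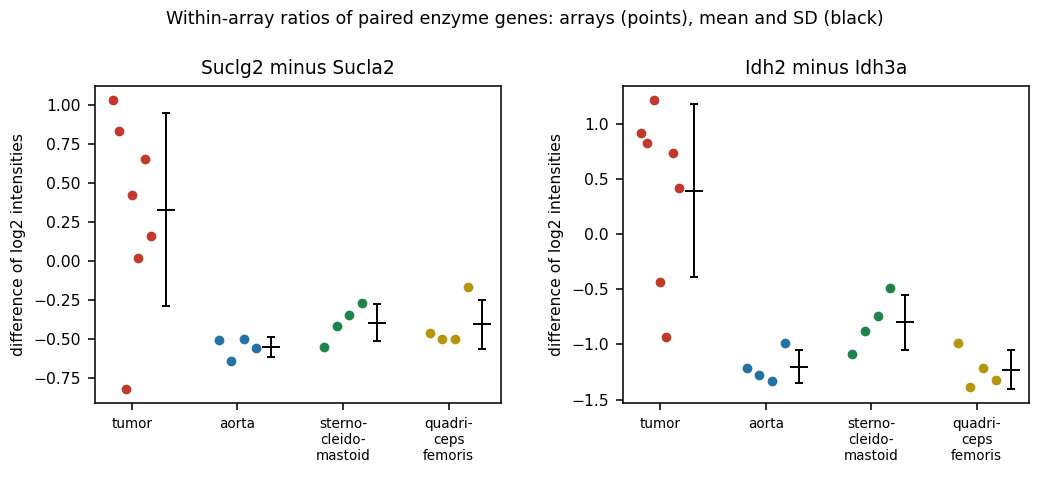
Log2 ratio of Suclg2 to Sucla2 and of Idh2 to Idh3a on each array (points), with mean and SD, for tumors, aortas, sternocleidomastoid and quadriceps femoris from left to right. The Idh2 to Idh3a ratio averages 0.40 in tumors and -1.20 in aortas, and tumors 4 and 5, at -0.43 and -0.93, lie nearest the normal samples.

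Between the normal tissues, 21 of 33 enzymes were higher in aorta than in muscle and 0 were lower by limma, where 17.0% and 15.3% of all genes rose and fell, and 27 were higher and 0 lower at an unadjusted p under 0.05, as were 21.6% and 19% of all genes. The median difference was 0.82 log2 units. Every aorta lay above every muscle sample for 29 members, against 14.6% of all genes, and no member lay wholly below, against 12.6%. For 30 members the mean order was tumor, quadriceps femoris, sternocleidomastoid, aorta, going up. Idh2 and Mdh2 had their highest mean in sternocleidomastoid, and Cpt1a had its highest in tumors and differed by -0.01 between the muscles.

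The differences were larger for genes of fatty acid oxidation than for the TCA cycle, a contrast that was not itself tested. The shuttle genes rose in 3 of 3 cases, beta-oxidation genes in 9 of 11 and electron transfer genes in 2 of 3, with medians of 1.19, 1.10 and 1.01. Pyruvate dehydrogenase genes rose in 3 of 4 and TCA cycle genes in 4 of 12 (Ogdh, Dlst, Suclg1 and Fh1), with medians of 0.78 and 0.50. Slc25a20, with aortas at 11.06 to 11.17 and muscles at 9.11 to 10.20, had the largest rise, 1.55 ± 0.22 (limma adjusted p = 1.27e-05), followed by Acadl at 1.45 ± 0.33 (limma adjusted p = 0.00195). The 12 members that did not pass were Acadm (1.14 ± 0.44, limma adjusted p = 0.0526), Eci1 (1.05 ± 0.40), Etfb (0.78 ± 0.32), Pdhb (0.88 ± 0.34), Cs (0.49 ± 0.20), Idh2 (0.32 ± 0.17), Idh3a (0.51 ± 0.35), Idh3b (0.14 ± 0.20), Idh3g (0.42 ± 0.24), Sucla2 (0.68 ± 0.26), Suclg2 (0.52 ± 0.32) and Mdh2 (-0.01 ± 0.16).

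Beside this difference stood brown adipocyte list means of 10.19 to 10.68 in aortas against 7.27 to 9.49 in the muscles, and heart muscle list means of 9.01 to 9.33 in aortas against 6.01 to 6.50 in the muscles. Skeletal muscle list means were 5.34 to 7.67 in aortas against 11.97 to 12.40 in the muscles, smooth muscle list means 10.29 to 10.80 in aortas against 7.33 to 7.87 in the muscles, and general adipocyte list means 10.43 to 10.64 in aortas against 7.71 to 10.05 in the muscles. The part of these lists in the difference was not tested. With sternocleidomastoid as the only muscle 7 members rose, where 14.2% of all genes did, and with the arrays centred on the housekeeping genes 11 did and 0 fell, where 8.01% of all genes rose and 51.3% fell and the median of all genes was -0.32.

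Between the muscles, no member passed with all 19 arrays in the fit (limma, 0 higher and 0 lower), where 0.234% and 0.198% of all genes passed in those directions. The median difference, sternocleidomastoid minus quadriceps femoris, was 0.39, with a range of -0.01 to 0.97, and 9 members were higher and 0 lower at an unadjusted p under 0.05, as were 3.73% and 3.33% of all genes. All sternocleidomastoid samples lay above all quadriceps femoris samples for 24 members, against 4.0% of all genes, and wholly below for none, against 3.6%. Acaa2 differed most, with 11.86, 11.91, 11.29 and 11.75 in sternocleidomastoid against 10.94, 10.73, 10.70 and 10.55 in quadriceps femoris (0.97 ± 0.43, limma adjusted p = 0.647).

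A fit of the muscle arrays alone, which takes the spread from these 8 samples, called 8 members higher in sternocleidomastoid, where 0.541% of all genes rose: Acadl, Acadvl, Acads, Hadha, Hadh, Slc25a20, Acaa2 and Etfdh. The smallest limma adjusted p was 0.0139, for Slc25a20, Acaa2 and Etfdh. All 8 belong to fatty acid oxidation or electron transfer. When quadriceps femoris 4 was also left out, 6 members passed, where 1.12% of all genes rose. The sternocleidomastoid samples also carried Ucp1, and their brown adipocyte list means were 8.52 to 9.49 against 7.27 to 8.29 in quadriceps femoris. Over 6 genes of slow muscle fibers the array means were 7.04 to 7.70 in sternocleidomastoid, against 6.07 to 6.90 in quadriceps femoris. Sternocleidomastoid 3, with the lowest Ucp1 of its group, had the lowest beta-oxidation mean there, 9.83 against 10.23 to 10.38. Quadriceps femoris 4, with the highest Ucp1 of its group (9.07), had a beta-oxidation mean of 9.62, the same as quadriceps femoris 1. Its TCA cycle mean, 10.58, was the lowest of its group. The part of these cells in the difference was not tested.

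Other genes of the same or neighbouring pathways were counted from fixed lists, which were chosen with earlier results of these data known. Over all genes 17.5% fell and 18.6% rose against aorta, and 25.7% fell and 25.3% rose against muscle. Rises among them depended on the scaling, and values with housekeeping centring are given beside them. That centring put the median of all genes at -0.68 against aorta and -1.03 against muscle, and the values given are not relative to that median. Of 17 further genes of mitochondrial fatty acid oxidation and related steps, 14 fell and 2 rose against aorta. Acadsb, Acad8 and Ivd among them act mainly in branched-chain amino acid breakdown. The falls were led by Acad11 (-2.97 ± 0.32), an acyl-CoA dehydrogenase, and Echs1 (-2.95 ± 0.37), the short-chain enoyl-CoA hydratase. Against muscle 14 fell and 2 rose as well, led by Ucp3 (-3.12 ± 0.31), a mitochondrial carrier of muscle and brown fat, and Acot13 (-2.40 ± 0.19), a thioesterase. The 2 that rose were Cpt1c and the acyl-CoA synthetase Acsl4 (0.65 ± 0.20, and 0 with that centring) against aorta, and Cpt1c and the acyl-CoA synthetase Acsl5 (1.84 ± 0.22, and 0.85 with that centring) against muscle, with Acsl5 falling by 1.37 ± 0.27 against aorta.

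Of 10 other mitochondrial genes, for succinate dehydrogenase subunits and enzymes that feed or drain the TCA cycle, 8 fell and 1 rose against aorta. The falls were led by Pcx (-3.13 ± 0.76), which makes oxaloacetate from pyruvate, and Sdhd (-2.72 ± 0.16), a succinate dehydrogenase subunit. Against muscle 7 fell and 1 rose, led by Sdhd (-2.04 ± 0.13) and Me3 (-1.98 ± 0.12), a mitochondrial malic enzyme. The gene that rose was Me2, another mitochondrial malic enzyme, by 0.51 ± 0.17 against aorta and 1.33 ± 0.14 against muscle, where housekeeping centring gave -0.14 and 0.34. Of 8 genes of pyruvate entry and its control, 5 fell and 1 rose in each comparison. Mpc1, the pyruvate carrier, differed by -2.82 ± 0.41 and -2.46 ± 0.34, and Pdk2, a kinase that inhibits pyruvate dehydrogenase, by -2.45 ± 0.35 and -2.91 ± 0.29. A related kinase, Pdk3, rose by 0.62 ± 0.22 and 1.64 ± 0.18, where housekeeping centring gave -0.03 and 0.65. Me2 and Pdk3 are named because they were the only genes of their lists that rose.

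Genes that make or control malonyl-CoA, the inhibitor of Cpt1 enzymes, fell in 4 of 5 cases against aorta, with Acacb, the mitochondrial acetyl-CoA carboxylase, at -3.94 ± 0.36 and Acaca, its cytosolic counterpart, at -3.22 ± 0.60. Against muscle 3 fell and 1, the AMP-activated kinase subunit Prkaa1, rose by 0.63 ± 0.14 (-0.36 with housekeeping centring), while the alternative subunit Prkaa2 showed -4.78 ± 0.17, Acacb -3.00 ± 0.30 and malonyl-CoA decarboxylase, Mlycd, -1.40 ± 0.09. Of 12 peroxisomal fatty acid oxidation genes, 11 fell against aorta, led by Ehhadh (-2.99 ± 0.44), the bifunctional enzyme, and Pecr (-2.25 ± 0.15), an enoyl-CoA reductase. Against muscle 7 of these fell, led by Pecr (-2.10 ± 0.13) and Abcd2 (-1.65 ± 0.54), a peroxisomal transporter, and 2, Acox3 and Decr2, rose by 0.21 ± 0.07 and 0.40 ± 0.14, where housekeeping centring gave -0.78 and -0.59. Of 8 fatty acid uptake genes, 4 fell and 0 rose against aorta, led by lipoprotein lipase, Lpl (-2.43 ± 0.62), and the transporter Slc27a1 (-1.91 ± 0.45). Against muscle Lpl and Slc27a1 fell (-1.49 ± 0.51 and -1.11 ± 0.37), and 2 others, the fatty acid binding protein gene Fabp5 (1.72 ± 0.25) and the transporter gene Slc27a4 (0.64 ± 0.08), rose, where housekeeping centring gave 0.73 and -0.35. These 2 falls and 2 rises among 8 genes were near the shares of all genes, of which 25.7% fell and 25.3% rose.

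Among 3 genes of ketone body use, 2 fell against aorta and 3 against muscle, with Acat1, a thiolase, at -2.36 ± 0.30 and -1.44 ± 0.25 and Oxct1, which activates acetoacetate, at -1.98 ± 0.16 and -2.04 ± 0.13. Of 7 cytosolic counterparts and lipid synthesis genes, 7 fell against aorta, led by Scd1 (-2.75 ± 0.80), a fatty acid desaturase, and Fasn (-2.70 ± 0.79), the fatty acid synthase. Against muscle 2 of these fell, the malic enzyme Me1 (-1.69 ± 0.27) and malate dehydrogenase Mdh1 (-1.43 ± 0.15), and 1, the citrate lyase Acly, rose by 1.09 ± 0.31 (0.10 with housekeeping centring). In that comparison 25.7% of all genes fell and 25.3% rose.

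Of 15 transcriptional regulators of these pathways, 10 fell and 1 rose against aorta, and 11 fell and 1 rose against muscle. Ppargc1a, the coactivator PGC-1alpha, was 4.22 to 8.31 in tumors, 8.95 to 10.42 in aortas, 9.52 to 9.74 in sternocleidomastoid and 9.01 to 9.25 in quadriceps femoris, with differences of -3.83 ± 0.58 and -3.69 ± 0.48 (limma adjusted p = 3.29e-05 and 2.02e-06). Its highest tumor value was in tumor 4 and the next, 7.32, in tumor 5. Ppara, the fatty acid receptor PPARalpha, differed by -3.64 ± 0.32 against aorta, and Perm1, a muscle regulator downstream of PGC-1, by -4.28 ± 0.11 against muscle. The only regulator that rose was Nrf1, which binds the palindrome marked in the Etfdh and Sucla2 promoters, by 0.59 ± 0.10 against aorta and 0.58 ± 0.08 against muscle (limma adjusted p = 1.31e-04 and 8.15e-06). With housekeeping centring its differences were -0.06 and -0.41, where the median of all genes was -0.68 and -1.03.

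Other mitochondrial genes fell as well, by medians smaller than that of the members against aorta and on either side of it against muscle. Of 27 respiratory chain and ATP synthase genes, 27 fell against aorta (median -1.63) and 27 against muscle (median -1.50), and of 27 mitochondrial ribosomal protein genes 26 fell against aorta (median -1.07) and 27 against muscle (median -1.08). Between aorta and muscle, 5 respiratory chain genes rose and 1 fell (median 0.20), and 5 ribosomal protein genes rose and 6 fell (median -0.13), beside 21 and 0 of the 33 members (median 0.82). Over all genes 17.0% rose and 15.3% fell there, and the rises of the respiratory chain and ribosomal protein lists were near that share. The differences between these lists were not tested.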

How the data were processed

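The deposited values were log2 intensities for 41345 probe sets on 19 arrays. The submitters' processing notes name Partek 6.6, whose role, like the normalization, is not given in the sources used here, and no further scaling or filter on low values was applied. The platform annotation gave 23521 probe sets a single symbol, 1814 several and 16010 none, which left 22180 genes.

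Groups were taken from the tissue labels. Over the 19 arrays, limma 3.58.1 (R 4.3.3, linear model and empirical Bayes) gave each group its own mean, p-values were adjusted over 22180 genes by Benjamini-Hochberg, the threshold was 0.05, and muscle is the mean of the 2 muscle groups. Ratios of gene pairs were compared by exact permutation. Another planned pair, Cpt1b with Cpt1a, could not be read, which left 8 tests. Promoters were read from RefSeq (GRCm38.p6).

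The members and gene lists were chosen with earlier results of these data known. Values on the compared normal arrays are given for the members with the largest difference in each role, the largest rises and the gene pairs. Tumor values of these members are mostly given as a range. For other lists the 2 largest differences past the threshold are given. Alternatives covered array scaling, dim genes, probe sets, the variance model, the arrays fitted, the threshold, each muscle alone, tumor subsets and each array left out in turn. The number of arrays limits the precision.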

Additional observations from a re-analysis of the deposited data

Results flagged for a closer look

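In 11 of 132 combinations of a member and a group, 1 array stood apart from the rest of its group by Dixon's test at the 95% level, which chance alone gives in about 5% of groups. Quadriceps femoris 4, the quadriceps femoris array with a Ucp1 signal, was lowest in its group for Idh3b (11.76), Dlst (10.09) and Dld (9.74). Sternocleidomastoid 3, the array of that muscle with the lowest Ucp1, was lowest for Acadvl (9.29), Eci1 (10.51) and Mdh2 (12.07). Tumor 5 was highest for Hadhb (6.80) and Eci2 (8.08). Among the aortas, aorta 2 was lowest for Hadh (12.46), and aorta 4 was highest for Etfb (12.28) and Suclg2 (10.27).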

How the results depend on the processing

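Against aorta and against muscle, 32 members fell and 1 rose when each array was left out in turn, and no called member changed direction under any alternative run. With tumors 5 to 7 alone 29 fell against muscle. In tumor minus muscle 3 members lost their call under at least 1 alternative (Acadl, Acads and Decr1), and Acadl also did at a threshold of 0.01. Members higher in aorta than in muscle numbered 21, and 16 to 20 without any 1 array, 11 with housekeeping centring (8.01% of all genes) and 7 with sternocleidomastoid as the only muscle (14.2% of all genes), and 15 members lost the call under at least 1 alternative. Between the muscles 0 members passed, and 0 did without any 1 array, but 8 passed with the compared groups only and 6 when quadriceps femoris 4 was also left out. The fit of 8 arrays takes its spread from the muscles alone. The Suclg2 to Sucla2 difference passed in tumor minus aorta with the mean over probe sets (1.48), with quantile normalization (0.88, adjusted exact permutation p = 0.0485) and without tumor 3 (1.07, within 0.76 to 1.07 over all arrays left out in turn). The mean over probe sets takes in a dim Suclg2 probe set, which by construction shrinks the Suclg2 difference. Tumor 3 is the lowest tumor for this ratio, so leaving it out by construction raises the difference from aortas. In aorta minus muscle the ratio was -0.15 and passed with the mean over probe sets (-0.44), with quantile normalization (-0.15) and without sternocleidomastoid 1 (-0.17, within -0.17 to -0.12 over all arrays left out in turn). The other ranges over arrays left out were 0.61 to 0.92 (Suclg2 to Sucla2, tumor minus muscle), 1.46 to 1.82 and 1.27 to 1.63 (Idh2 to Idh3a, tumor minus aorta and minus muscle). Causes were not tested. No paired analysis was possible because the labels give no replicate numbers.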
